A study of Mus musculus with 6 samples.

Results

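Simple keratins and junction genes that mark epithelial cells were examined in RNA from cultured mouse calvarial preosteoblasts, a mesenchymal cell population that forms bone. The 10 genes were *Krt8*, *Krt18*, *Krt19*, *Krt7*, *Epcam*, *Spint1*, *Spint2*, *F11r*, *Cdh1* and *Cldn4*, taken by symbol from the 17001 rows of the deposited table, and all 10 had a row. They were chosen by their FPKM values in these same 6 libraries, so the difference between control and cKO libraries is described for them and not tested. Calvaria of mice aged 3 days were digested with trypsin and collagenase, and the released cells were cultured. The 3 control libraries came from *Nell2* fx/fx mice, which carry floxed *Nell2* and no Cre. The 3 cKO libraries came from Col1-cre; *Nell2* fx/fx mice, which carry the same floxed gene and in which a fragment of the *Col1a1* promoter drives Cre in cells of the osteoblast lineage, so other cells of the culture would keep *Nell2*. The labels do not say whether each library came from a separate animal or a pool, so any p-value measures only the spread between these libraries, which may be technical.

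Keratins are intermediate filament proteins that assemble as pairs of a type I and a type II chain. *Krt8* (type II) and *Krt18* (type I) form the pair typical of simple, single-layered epithelia. *Krt7* and *Krt19* are the type II and type I keratins that ducts and other simple epithelia add to it. E-cadherin (*Cdh1*) and EpCAM hold epithelial cells to each other, claudin 4 (*Cldn4*) and JAM-A (*F11r*) belong to their tight junctions, and *Spint1* and *Spint2* encode the membrane inhibitors HAI-1 and HAI-2 of epithelial serine proteases. Mesenchymal cells usually keep *Cdh1* low through repressors of the SNAI and ZEB families, which bind E-box sequences in promoters.

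The targeted gene did not mark the cKO group. *Nell2*, in FPKM (fragments scaled to transcript length and library size), was at 3.17, 2.59 and 1.88 in controls 1, 2 and 3, and 5.64, 1.61 and 5.74 in cKO libraries 1, 2 and 3, so these values do not bear out the labels. The cKO libraries are named here by label alone, and every direction below rests on those labels. FPKM of whole libraries summed to between 573307 and 606428 and read depth is not known from such values. Libraries were compared as log2(FPKM + 1) with limma over the 11590 rows with at least 1 FPKM in at least 3 libraries, and 0 rows (0%) had a Benjamini-Hochberg adjusted p under 0.05, with 1521 at an unadjusted p under 0.05 and a lowest adjusted p of 0.312. Without cKO 1 the number was 334 and without control 3 it was 2. None of the epithelial genes described here was among them, but *Epcam*, *Spint2*, *Spint1*, *Cdh1* and *Cldn4* did not pass the filter without cKO 1 and were not tested there. The median log2 difference over these rows was -0.02. The Y-linked gene *Ddx3y* stood at 17.27, 17.33 and 15.65 FPKM in control 3, cKO 1 and cKO 3 and at 0.06 or below in the others, a split that follows neither the group labels nor the keratins described below.

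The genes lie on 8 chromosomes of GRCm38.p6 in the RefSeq annotation, the same build as in the submitters' processing notes. *Krt7* (101412403 to 101427806), *Krt8* (101996711 to 102004342) and *Krt18* (102028216 to 102032026) are on chromosome 15. The 23873 bases between *Krt8* and *Krt18* hold 2 annotated loci, *Gm36026* and *Gm41404*, and the start sites of the keratin pair face each other. *Krt19* is on chromosome 11 (100140810 to 100145926). *Epcam* lies on chromosome 17 (87635979 to 87651127), *Cdh1* on chromosome 8 (106603350 to 106670247), *Cldn4* on chromosome 5 (134945123 to 134946934), *F11r* on chromosome 1 (171437561 to 171464593), *Spint1* on chromosome 2 (119237360 to 119249535) and *Spint2* on chromosome 7 (29256330 to 29282059).

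Promoter windows of 300 bases, 250 before and 50 after the start site, were available from RefSeq for 8 of the 10 genes. The windows of 5 genes, the keratin pair, the keratin added to it, a claudin and an adhesion gene, are printed 5′ to 3′ on the strand of the gene, so that the letters they share can be seen. They are *Krt8* (chr15:102004293-102004592, minus strand), *Krt18* (chr15:102027966-102028265, plus strand), *Krt7* (chr15:101412153-101412452, plus strand), *Cldn4* (chr5:134946885-134947184, minus strand) and *Epcam* (chr17:87635729-87636028, plus strand). Capitals mark matches on either strand to the E2-box CAGGTG, the AP-1 site TGANTCA, the GC-box GGGCGG and the TATA box TATAAA, and no match of one motif overlapped that of another.
Krt8: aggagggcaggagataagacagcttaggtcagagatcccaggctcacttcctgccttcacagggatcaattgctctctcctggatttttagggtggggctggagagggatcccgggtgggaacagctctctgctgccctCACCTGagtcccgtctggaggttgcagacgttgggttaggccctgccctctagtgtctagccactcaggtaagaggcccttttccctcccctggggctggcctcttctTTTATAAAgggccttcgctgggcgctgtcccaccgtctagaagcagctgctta
Krt18: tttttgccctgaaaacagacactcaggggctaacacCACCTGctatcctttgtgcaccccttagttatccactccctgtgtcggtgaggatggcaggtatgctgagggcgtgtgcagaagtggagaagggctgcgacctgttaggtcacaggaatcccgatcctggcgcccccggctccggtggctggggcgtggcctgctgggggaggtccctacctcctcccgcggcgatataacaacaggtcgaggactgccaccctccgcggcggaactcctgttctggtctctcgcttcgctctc
Krt7: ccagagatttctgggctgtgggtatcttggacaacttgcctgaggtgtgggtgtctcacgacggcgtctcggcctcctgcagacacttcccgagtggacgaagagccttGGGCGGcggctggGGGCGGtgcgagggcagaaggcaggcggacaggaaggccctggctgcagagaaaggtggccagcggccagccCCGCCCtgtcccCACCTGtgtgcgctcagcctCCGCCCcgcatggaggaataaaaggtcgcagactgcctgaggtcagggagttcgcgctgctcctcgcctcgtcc
Cldn4: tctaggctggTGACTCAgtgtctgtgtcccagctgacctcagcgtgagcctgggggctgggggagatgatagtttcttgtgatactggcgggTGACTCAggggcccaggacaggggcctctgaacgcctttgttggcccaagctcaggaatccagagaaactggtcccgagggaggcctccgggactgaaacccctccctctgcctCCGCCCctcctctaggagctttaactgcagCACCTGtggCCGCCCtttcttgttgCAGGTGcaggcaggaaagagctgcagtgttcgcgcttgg
Epcam: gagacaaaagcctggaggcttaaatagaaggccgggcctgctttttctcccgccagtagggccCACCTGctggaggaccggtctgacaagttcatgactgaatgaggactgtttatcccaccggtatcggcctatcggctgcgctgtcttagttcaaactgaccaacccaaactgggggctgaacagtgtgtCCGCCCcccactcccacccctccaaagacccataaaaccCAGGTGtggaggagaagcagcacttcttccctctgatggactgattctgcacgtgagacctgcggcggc

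The E2-box, a form of E-box that SNAI and ZEB factors bind, was in 7 of the 8 windows, and in 20.2% of all 32851 promoter windows of the table. *Spint1* was the one window without it. *Krt8*, *Krt18* and *Krt7* held 1 match each, beginning at -111, -214 and -44 from the start site, *Epcam* and *Cldn4* held 2 each, and *Spint2* held 3. The AP-1 site was in 3 of the 8 windows (*F11r*, *Spint1* and *Cldn4*) and in 7.81% of all windows. The GC-box was in 6 of the 8 and in 35.7% of all windows, and *Krt8* and *Krt18* were the pair without it. The TATA box was in the *Krt8* window alone, with both strands matching in overlapping letters, and in 13.6% of all windows. The GC content of the 8 windows ran from 57.0% to 69.7%, above the median of 52.7% over all windows. These matches describe the letters only, and no binding was measured.

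The 10 genes were expressed at low to middling levels. In order of the mean over 6 libraries, *Krt18* was highest at 9.15 FPKM, above 62.1% of all rows, followed by *Krt8* at 7.78, *Krt7* at 4.56, *Krt19* at 4.52, *Spint2* at 1.58, *F11r* at 1.39, *Cldn4* at 0.927, *Epcam* at 0.797, *Cdh1* at 0.763 and *Spint1* at 0.338. FPKM is scaled to transcript length, so these levels can be set side by side. The range over the 6 libraries overlapped for every pair of neighbours in this order, and that of *Krt18* alone ran from 0.23 to 21.91 FPKM. Of the 10, 7 passed the filter on low values. *Epcam* and *Spint2* passed only through the cKO libraries, and *Cdh1*, *Cldn4* and *Spint1* did not pass. Values of all 10 are given below whatever the filter.

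*Krt18* and *Krt8* moved together over a wide range. *Krt18* stood at 0.23, 1.41 and 6.24 FPKM in controls 1, 2 and 3 and at 21.91, 17 and 8.1 in cKO 1, 2 and 3. *Krt8* stood at 0.14, 1.27 and 5.81 in the controls and at 18.1, 15.61 and 5.74 in the cKO libraries. Control 1 was nearly devoid of both, control 3 lay close to cKO 3, and the groups met there: every cKO value of *Krt18* was above every control value, while *Krt8* in cKO 3 was just under control 3. The mean of *Krt18* was 2.63 ± 3.18 (SD, n = 3) in control and 15.7 ± 7.0 (SD, n = 3) in cKO libraries, a log2 difference of 2.48 (standard error 0.85). That of *Krt8* was 2.41 ± 3.00 against 13.2 ± 6.54 (SD, n = 3 each), a log2 difference of 2.31 (standard error 0.89). Between control 1 and cKO 1 the level differed 95.3-fold for *Krt18* and 129-fold for *Krt8*, yet the ratio of *Krt8* to *Krt18* within a library stayed between 0.609 and 0.931. Within the control group alone *Krt18* varied 27.1-fold, more than the 5.97-fold ratio of the group means.

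*Krt7* followed the pair and *Krt19* did not. *Krt7* stood at 0.32, 1.12 and 2.74 FPKM in the controls and at 11.49, 8.83 and 2.87 in the cKO libraries, with cKO 1 and cKO 2 high and cKO 3 level with control 3. Its log2 difference was 1.83 (standard error 0.67). *Krt19* stood at 5.35, 3.74 and 3.12 in the controls and at 3.67, 2.97 and 8.28 in the cKO libraries. It was highest in cKO 3, where the other simple keratins were lowest among the cKO libraries, and second highest in control 1, where they were nearly absent. Its log2 difference was 0.16 (standard error 0.42) and turned to -0.21 without cKO 3. The ratio of *Krt19* to *Krt18* accordingly ran from 0.168 in cKO 1 to 23.3 in control 1.

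**Figure D1:**
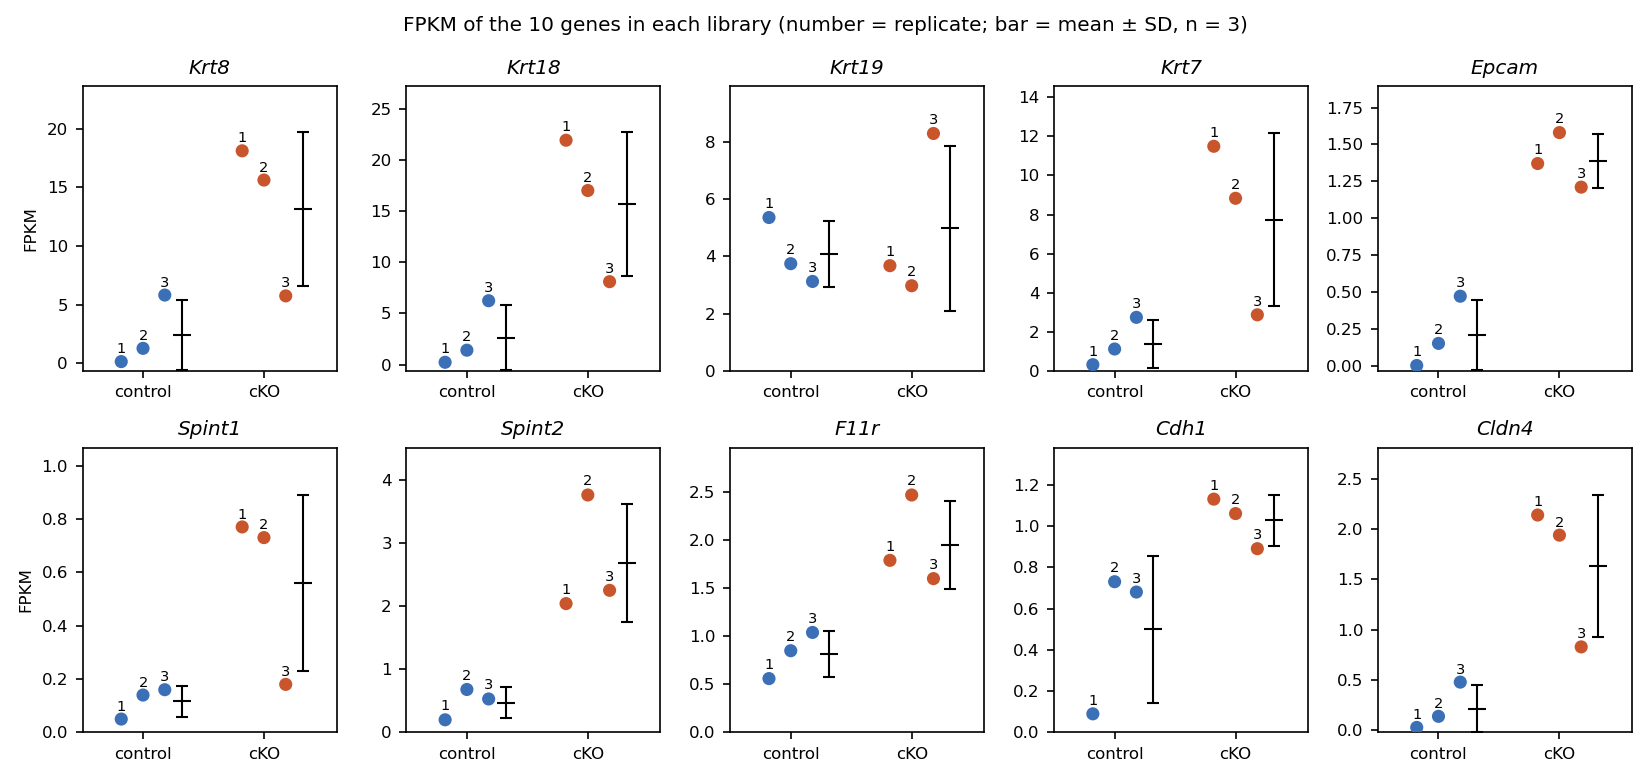
FPKM (vertical axes, each panel on its own scale) of the 10 genes in the 3 control (blue) and 3 cKO (orange) libraries, with the replicate number above each point and the group mean ± SD (n = 3) as a bar beside it. In 8 panels all cKO points lie above all control points; in *Krt8* control 3 (5.81) lies just above cKO 3 (5.74), and *Krt19* has its highest point in cKO 3 (8.28).

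**Figure D2:**
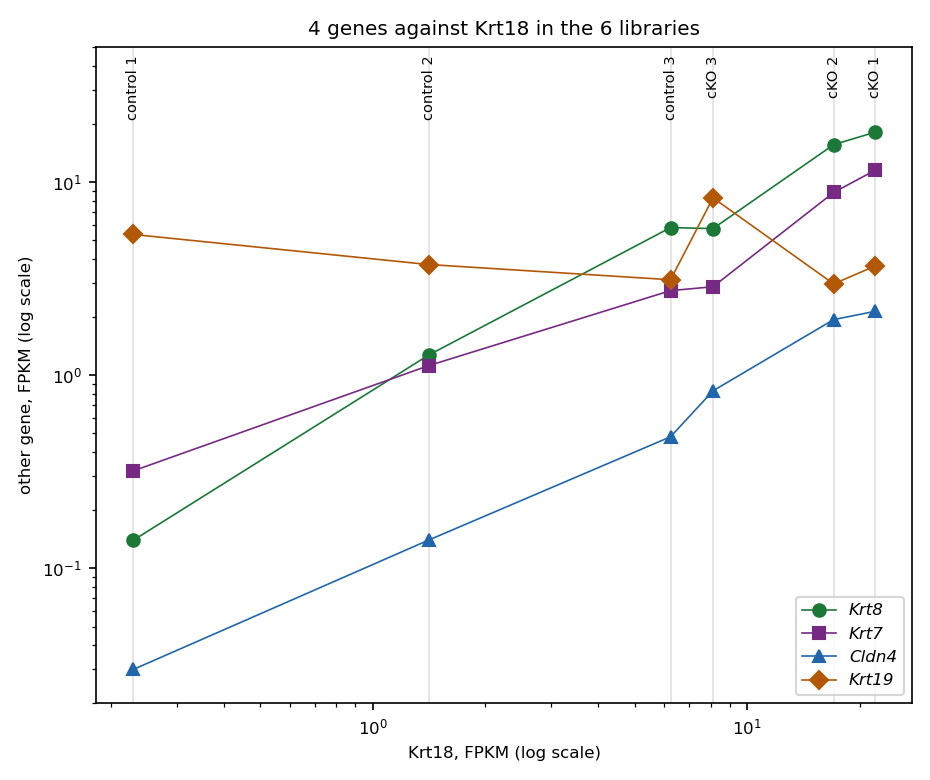
FPKM of *Krt8*, *Krt7*, *Cldn4* and *Krt19* (vertical axis, log scale) against *Krt18* (horizontal axis, log scale) in the 6 libraries, each named at the top and joined by a line for each gene in order of *Krt18*. *Krt8*, *Krt7* and *Cldn4* climb from control 1 to cKO 1, while *Krt19* stays between 2.97 and 8.28.

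The adhesion genes were also lowest in control 1 and highest in cKO 1 and cKO 2, at no more than 1.58 FPKM. Their order was otherwise not that of *Krt18*, with *Epcam* highest in cKO 2 and *Cdh1* higher in control 2 than in control 3. *Epcam* was listed at 0 in control 1 and stood at 0.15 and 0.47 FPKM in controls 2 and 3, against 1.37, 1.58 and 1.21 in cKO 1, 2 and 3. Its log2 difference was 1.0 (standard error 0.17). *Cdh1* stood at 0.09, 0.73 and 0.68 in the controls and at 1.13, 1.06 and 0.89 in the cKO libraries. Much of its difference of 0.46 (standard error 0.22) came from control 1, and the other control values lay near that of cKO 3.

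Of the tight junction genes, *Cldn4* tracked *Krt18* most evenly. It stood at 0.03, 0.14 and 0.48 FPKM in the controls and at 2.14, 1.94 and 0.83 in the cKO libraries, so that its ratio to *Krt18* stayed between 0.0769 and 0.130 in all 6. Its log2 difference was 1.09 (standard error 0.29). *F11r*, which leukocytes, platelets and endothelium also express, had a higher floor, with 0.56, 0.85 and 1.04 in the controls and 1.79, 2.47 and 1.6 in the cKO libraries. Its log2 difference was 0.70 (standard error 0.17), and its groups did not overlap.

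The protease inhibitors differed in which cKO library was highest. *Spint2* stood at 0.2, 0.68 and 0.53 FPKM in the controls and at 2.04, 3.76 and 2.25 in the cKO libraries. It was highest in cKO 2 and about equal in cKO 1 and cKO 3, with a log2 difference of 1.31 (standard error 0.25). *Spint1* stood at 0.05, 0.14 and 0.16 in the controls and at 0.77, 0.73 and 0.18 in the cKO libraries. Its cKO 3 value was near that of control 3, the highest control, as for *Krt8* and *Krt7*, and its log2 difference was 0.46 (standard error 0.19).

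Counted together, 8 of the 10 genes had every cKO value above every control value, a pattern found in 6.09% of the 16990 rows above 0 in any library, and 0 of the 10 had every cKO value below every control value (8.93% of rows). This contrast was used to choose the genes, so nothing is read from the count. With libraries rescaled by median-of-ratios or upper-quartile factors the count was 9, because *Krt8* joined. The median log2 difference was 1.05 over all 10 genes. The order of libraries is given in the same way, as a description of genes chosen by these values. Across both groups, control 1 was the lowest of all 6 libraries for 9 of the 10 genes (15.4% of rows), *Krt19* being the exception. Both cKO 1 and cKO 2 exceeded the other 4 libraries for 8 of the 10 (4.59% of rows), all but *Krt19* and *Spint2*. Within the control group, control 1 was lowest and control 3 highest for 7 of the 10 (16.9% of rows), the exceptions being *Krt19*, *Spint2* and *Cdh1*. Among the cKO libraries, cKO 3 was lowest for 8 of the 10 (31.7% of rows), all but *Krt19* and *Spint2*. Summed over the genes other than *Krt19*, the level was 1.62, 6.49 and 18.15 FPKM in controls 1, 2 and 3 and 60.74, 52.98 and 23.67 in cKO 1, 2 and 3. In bulk RNA, more cells that express these genes and more RNA per cell cannot be told apart.

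Other epithelial genes were mostly near the floor of the table. Their list was drawn up with earlier results of these data known, so its counts are a description and not independent support. Of 42 genes of epithelial junctions, desmosomes, basement membrane contacts and epithelial transcription and splicing factors, 41 had a row and 31 of these stayed under 1 FPKM in every library. Of the 8 that passed the filter, 0 had an adjusted p under 0.05 in limma (lowest 0.312), 4 had an unadjusted p under 0.05 with higher values in cKO (5.37% of all tested rows) and 0 with lower values (7.76%). Their median log2 difference was 0.31, against 0.10 over all 41 with a row and -0.02 over all tested rows, and it was 0.17 without cKO 2, when 6 of them passed. Over the 41, 15 had every cKO value above every control value (6.09% of rows) and 0 the reverse (8.93%). In 15, cKO 1 and cKO 2 exceeded all other libraries (4.59%).

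*Cldn6*, an embryonic epithelial claudin, was listed at 0 in control 1 and stood at 0.04 and 0.73 FPKM in controls 2 and 3, against 2.82, 2.87 and 1.21 in cKO 1, 2 and 3. Its log2 difference was 1.39 (standard error 0.29 and adjusted p = 0.312 from limma), and its order of libraries was nearly that of *Krt18*. It passed the filter only through the cKO libraries, as did *Krt17* described below. *Cd24a*, *Perp* and *Itgb4* had differences of 0.48, 0.34 and 0.28 (adjusted p from limma between 0.312 and 0.423). Below the filter, *Cldn3* was listed at 0 in control 1, stood at 0.05 in control 2, at 0.27 in both control 3 and cKO 3, and at 1.02 and 1.24 in cKO 1 and cKO 2. *Cldn7*, the claudin that binds EpCAM, stood at 0.1, 0.15 and 0.16 in the controls and 0.46, 0.99 and 0.45 in the cKO libraries.

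The regulators of an epithelial program were barely detected. *Esrp1*, an epithelial splicing factor, was listed at 0, 0 and 0.04 FPKM in the controls and at 0.17, 0.23 and 0.06 in the cKO libraries. *Ovol1* was listed at 0 in the controls and at 0.03 to 0.04 in the cKO libraries. The groups overlapped for *Esrp2* (0.16 to 0.3), *Grhl1* (0.02 to 0.15), *Elf3* (0.02 to 0.13) and *Grhl2* (0 to 0.03). *Ehf* and *Elf5* did not exceed 0.03 in any library. *Cdh3* (P-cadherin), by contrast, stood at 7.22 to 10.36 in all 6 libraries, and its lowest value was in cKO 1, the library with most *Krt18*. *Pkp2* and *Cxadr* were likewise present in every library, with overlapping groups.

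**Figure D3:**
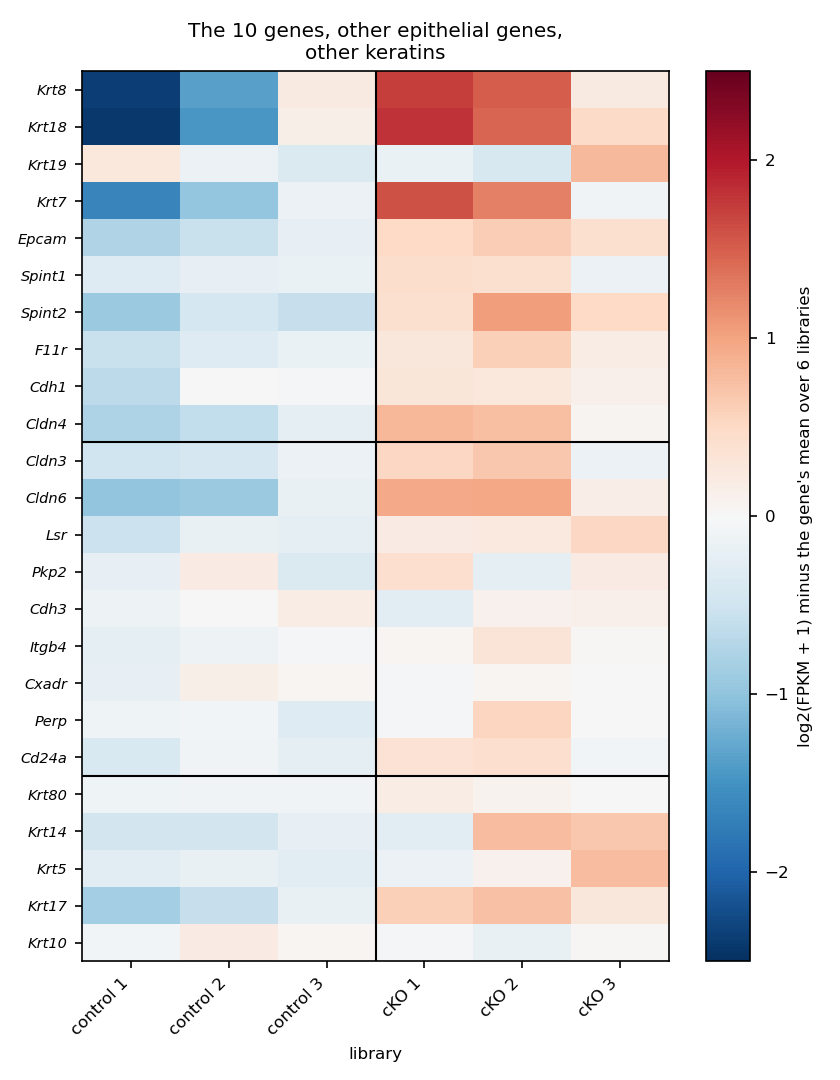
Level of each gene in each library as log2(FPKM + 1) minus the mean of that gene over the 6 libraries (colour, blue low and red high), for the 10 genes (top block), 9 other epithelial genes that reached 1 FPKM in any library (middle) and the other keratins that did so (bottom). In the top block control 1 is blue for all but *Krt19*, and cKO 1 and cKO 2 are red for *Krt8*, *Krt18*, *Krt7*, *Cldn4*, *Cldn3* and *Cldn6*, while *Krt5* and *Krt14* are not red in cKO 1.

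The table held 25 keratin rows, and 16 of them stayed under 1 FPKM throughout. Outside the simple keratins, 5 reached 1 FPKM in some library. *Krt17*, a keratin of basal and stressed epithelia, was listed at 0 in control 1, stood at 0.21 and 0.58 FPKM in controls 2 and 3 and at 1.73, 2.02 and 1.21 in the cKO libraries (log2 difference 1.08, standard error 0.19, adjusted p = 0.312 from limma). The keratin pair of the basal epidermis had another order. *Krt14* was listed at 0 in controls 1 and 2 and stood at 0.19 in control 3, 0.13 in cKO 1, 1.35 in cKO 2 and 1.19 in cKO 3. *Krt5* was at most 0.05 in the controls and stood at 0.08, 0.3 and 1.04 in the cKO libraries. cKO 1, the library with most *Krt8*, *Krt18* and *Krt7*, thus had control levels of *Krt14*. *Krt80* stood at 0.73, 0.74 and 0.76 in the controls and at 1.11, 0.97 and 0.88 in the cKO libraries, in the same order of libraries as *Krt18*. *Krt10* stood between 0.98 and 1.59, with overlapping groups.

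Cytoplasmic partners of these junctions, which most cells express, were abundant and even. Of 17 such genes, 16 passed the filter, 0 had an adjusted p under 0.05 in limma (lowest 0.432) and 0 an unadjusted p under 0.05, and their median log2 difference was -0.02. Their summed level was 682.5 to 699.5 FPKM in controls and 661.9 to 676.3 in cKO libraries. β-catenin (*Ctnnb1*) stood at 251.5 to 282.44 and ZO-1 (*Tjp1*) at 13.15 to 14.88. The largest differences were -0.16 for p120-catenin (*Ctnnd1*) and -0.13 for *Jam3*, a relative of *F11r*. Of 13 proteases and growth factor partners of the SPINT inhibitors, 11 had a row and 3 passed the filter, with 0 at an adjusted or an unadjusted p under 0.05 in limma. *Met* had a log2 difference of 0.22, *Hgf* 0.11 and *Mst1r* 0.02. The target protease matriptase (*St14*) stood at 0.16, 0.15 and 0.13 FPKM in the controls and 0.28, 0.52 and 0.34 in the cKO libraries.

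**Figure D4:**
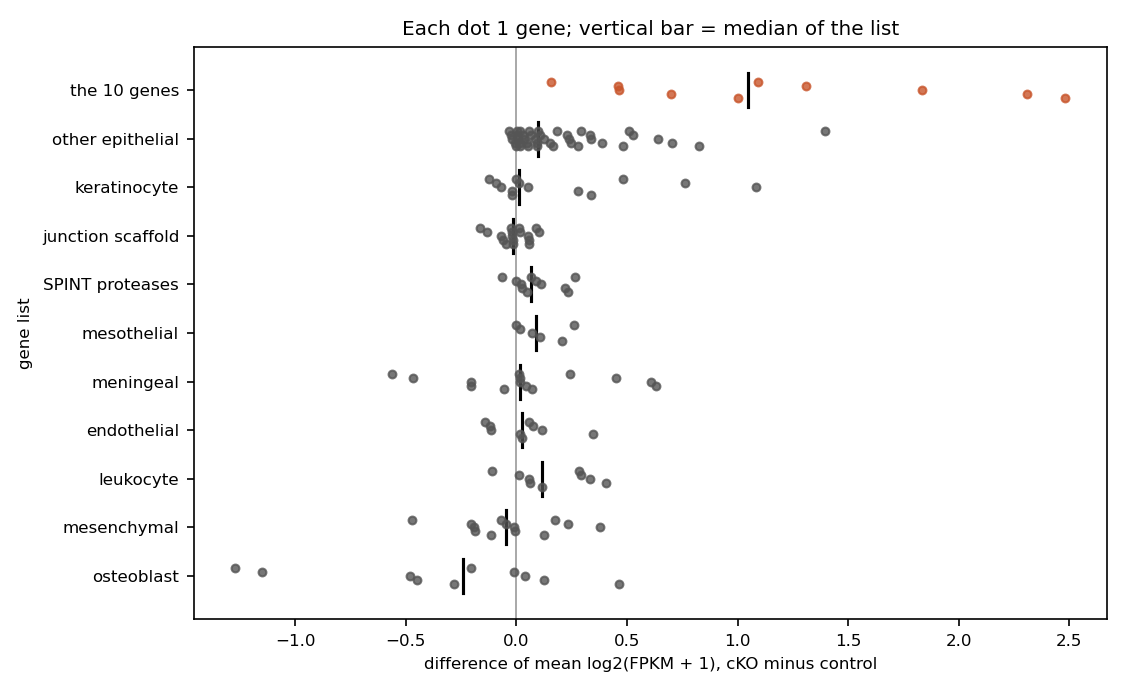
Difference of mean log2(FPKM + 1), cKO minus control (horizontal axis), for every gene with a row in 11 lists (vertical axis), 1 dot a gene, with a vertical bar at the list median. The 10 genes (orange) have a median of 1.05, the other epithelial genes 0.10, and the junction scaffold list lies within -0.16 and 0.10.

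The cells had the profile of osteoblast lineage mesenchyme in all libraries, those rich in keratins included. *Col1a1*, the main bone collagen, stood at 8052.61 to 8578.05 FPKM, and *Vim*, the intermediate filament of mesenchymal cells, at 2053.39 to 2722.52. The summed mesenchymal list was 5686 to 6334 in controls and 6017 to 6360 in cKO libraries. Known repressors of *Cdh1* were present in every library. The groups overlapped for *Zeb1* (21.6 to 23.47), *Snai1* (63.69 to 82.22), *Twist1* (67.89 to 89.79) and *Snai2* (23.44 to 41.44, log2 difference 0.38). *Zeb2* stood at 7.84, 7.03 and 7.88 in the controls and was higher in every cKO library, at 8.09, 8.51 and 8.41 (log2 difference 0.12, adjusted p = 0.461 from limma). Of the 13 mesenchymal genes, 0 had an adjusted p under 0.05 in limma, with 1 higher (*Vim*, 5.37% of all tested rows) and 2 lower (*S100a4* and *Prrx1*, 7.76%) at an unadjusted p under 0.05. Without cKO 1, *S100a4* was among the genes with an adjusted p under 0.05 in limma. *Vim*, *S100a4*, *Prrx1* and *Twist2* had log2 differences of 0.23, -0.47, -0.21 and -0.19.

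Genes of maturing osteoblasts were highest in control 1, the library poorest in keratins. *Ibsp* (bone sialoprotein) stood at 123.86, 61.9 and 48.79 FPKM in controls 1, 2 and 3 and at 34.64, 26.17 and 27.65 in cKO 1, 2 and 3. *Sp7* (osterix) stood at 17.57, 16.86 and 13.2, then 12.44, 10.4 and 10.31, and *Alpl* at 36.44, 33.08 and 25.15, then 23.09, 22.65 and 22.03. For these 3 genes control 3 was the lowest control and every cKO value was lower still, while cKO 1, with most *Krt18*, was the lowest for none. *Bglap* (osteocalcin) had a log2 difference of -1.15. Of 10 osteoblast genes, 0 had an adjusted p under 0.05 in limma (lowest 0.312), with 5 lower (7.76% of all tested rows) and 1 higher (*Postn*, 5.37%) at an unadjusted p under 0.05. A relation between these genes and the keratins was not tested.

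Some markers of other cell types were also higher in the cKO libraries. The 13 keratinocyte markers summed to 3.09 to 6.39 FPKM in controls and 5.59 to 10.24 in cKO libraries, ranges that overlap. Their median log2 difference was 0.01, with 7 of the 13 higher and 5 lower in cKO libraries. In 3 of them every cKO value was above every control value (6.09% of all rows). All 13 had a row and none was at 0 in all libraries, but *Krt1*, *Dsg3* and *Ivl* did not exceed 0.05 in any. *Sfn* (log2 difference 0.34) and *Krt10* (-0.12) overlapped between the groups. Markers of mesothelium, which itself has simple keratins, summed to 0.46 to 0.68 in controls and 1.05 to 1.38 in cKO libraries. Of 6 with a row, 4 had every cKO value above every control value (6.09% of all rows) and 0 passed the filter, with *Msln* at 1.1 FPKM in cKO 2 and at most 0.5 elsewhere. The 14 meningeal markers summed to 488.5 to 887.5 in controls and 887.1 to 1237 in cKO libraries, mostly *Mgp*, which cartilage and other cells also express. They had 1 higher (*Crabp2*, 0.61) and 1 lower (*Gjb6*, -0.47), against 5.37% and 7.76% of all tested rows, at an unadjusted p under 0.05 in limma and 0 at an adjusted p under 0.05. Claudin 11 (*Cldn11*), which marks the arachnoid, stood at 2.86, 5.17 and 4.24 in the controls and was lowest in cKO 1 and cKO 2 at 1.86 and 1.7, against 4.01 in cKO 3. The other named differences of that list were 0.63 for *Mgp*, 0.45 for *Aldh1a2* and -0.56 for *Cldn11*, none with an adjusted p under 0.05. The part of these cells in the keratin values was not tested.

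The sums of leukocyte and endothelial markers had another order of libraries than the keratins. The 9 leukocyte markers summed to 34.49 to 93.24 FPKM in controls and 47.52 to 77.1 in cKO libraries. The highest sum was in control 3 and was mostly *Lyz2*, at 74.99 there. Of 5 that passed the filter, 0 had an adjusted p under 0.05 in limma. At an unadjusted p under 0.05, 1 was higher (*Laptm5*, 0.40), against 5.37% of all tested rows. *Lyz2* and *Csf1r* (1.31) were highest in control 3, *Cd68* (7.1) and *Tyrobp* (7.21) in cKO 3 and *Laptm5* (2.13) in cKO 2. *Cd68*, *Tyrobp*, *Csf1r* and *Lyz2* had log2 differences of 0.33, 0.29, -0.11 and 0.06. The 9 endothelial markers summed to 2.96 to 5.69 in controls and 2.64 to 4.97 in cKO libraries, and the lowest sum was in cKO 1. *Cdh5* (VE-cadherin) alone passed the filter, with a log2 difference of -0.12 (adjusted p = 0.741 from limma).

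**Figure D5:**
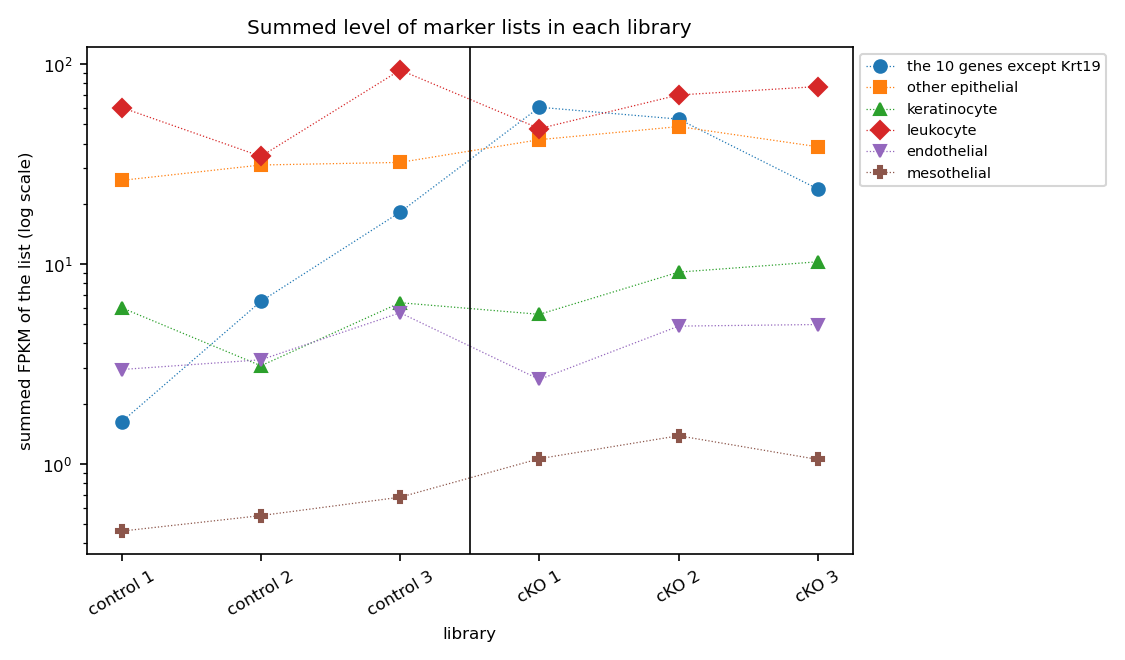
Summed FPKM of marker lists (vertical axis, log scale) in each library (horizontal axis), with dotted lines only to guide the eye between libraries. The 10 genes without *Krt19* go from 1.62 in control 1 to 60.74 in cKO 1. The leukocyte list, mostly *Lyz2*, is highest in control 3 (93.24) and the endothelial list lowest in cKO 1 (2.64).

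Genes outside the group with the most similar pattern were sought by the root-mean-square difference between their log2(FPKM + 1) values, centred on the gene's mean, and the mean centred profile of *Krt8* and *Krt18* over the 6 libraries. The median of this distance over all tested rows was 1.48. *Krt7* had 0.43, *Spint2* 0.97, *Epcam* 0.99, *F11r* 1.13 and *Krt19* 1.66. The 10 nearest genes that were not members were *Ccl6* (0.57), *Cldn6* (0.74), *Ifi211* (0.75), *Fabp4* (0.81), *Pcp4l1* (0.83), *Zfp984* (0.90), *Krt17* (0.92), *Wfdc17* (0.93), *Zfp991* (0.94) and *Mmp12* (0.99). *Ccl6*, a chemokine of myeloid cells, stood at 0.18, 0.14 and 1.37 FPKM in the controls and 4.95, 6.01 and 2.29 in the cKO libraries. *Fabp4*, a fatty acid binding protein of adipocytes and macrophages, stood at 13.91, 19.79 and 22.45 in the controls and 49.33, 85.35 and 53.6 in the cKO libraries. *Mmp12*, macrophage elastase, stood at 0.66, 0.83 and 1.36 and at 2.33, 5.64 and 3.66. All 3 were highest in cKO 2, as were *Epcam*, *Spint2*, *F11r*, *Cldn6* and *Krt17*, while *Krt8* and *Krt18* were highest in cKO 1. The part of myeloid cells in the keratin values was not tested. The distance compares shape and size over 6 libraries only and was used to rank genes, with no test.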

How the data were processed

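Paired-end RNA-seq covered 3 control and 3 cKO libraries. The authors mapped reads with HISAT2 to GRCm38 and deposited FPKM values by gene symbol, with 2 decimals. The methods name DESeq for normalization, which FPKM does not carry. The FPKM program, the annotation and the treatment of reads shared with keratin pseudogenes are not given in the sources used here. All per-sample columns were used. log2(FPKM + 1) was compared with limma 3.58.1 in R 4.3.3 (lmFit, eBayes, two-sided, Benjamini-Hochberg) over rows reaching 1 FPKM in 3 or more libraries, and the procedure was tested on simulated data. This scale understates changes of low genes. Standard errors of the 10 genes come from the SD within groups and those of other genes from limma. Low FPKM values did not settle the read depth, so no counting intervals were computed. The 10 genes and the lists were chosen with earlier results of these data known. Named genes were the 10, *Nell2*, *Ddx3y*, keratins reaching 1 FPKM, up to 5 tested genes with the largest absolute difference in each list, and the 10 nearest in pattern. Others were named after their values were seen, and 1 gene that the rule names is not reported here. *Ovol2*, *Tmprss4*, *Klk5* and *Muc16* had no row. Alternatives were pseudocount, filter, scaling, variance trend, replicate block, *Ddx3y* as covariate and each library left out.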

Additional observations from a re-analysis of the deposited data

How the results depend on the processing

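Adjusted p-values under 0.05 in limma numbered 0 under every alternative that kept all 6 libraries and 0 to 334 with 1 library left out. The 334 came without cKO 1. Without control 3 there were 2, *Cyp4f16* and *Ifi211*, named after their values were seen. None of the other 41 epithelial genes was among these calls, but few of them were tested. These were 8 in most alternatives, 6 without any 1 of the cKO libraries and 6 when every library had to reach 1 FPKM. All 41 were tested only without a filter. Calls are not counted for the 10 genes, which were chosen by these values. Of the 10, 7 passed the filter in most alternatives, 5 without any 1 of the cKO libraries and 1 when every library had to reach 1 FPKM. The number of the 10 genes with every cKO value above every control value was 8 in the main setting (6.09% of rows) and 8 to 9 with libraries rescaled or 1 left out. With 1 library fewer this pattern is easier to reach, and its share over all rows was not computed there. Nothing is read from these counts, as the genes were chosen by this contrast. The median log2 difference of the members that passed the filter was 1.31, with 2.57 at a pseudocount of 0.1, 0.16 when FPKM of at least 1 was required in every library (*Krt19* alone passed) and 1.17 to 2.34 with 1 library left out, the highest without cKO 3, when 5 of the genes passed. That of the other epithelial genes was 0.31, with 0.10 without a filter (41 genes in place of 8) and 0.17 to 0.40 with 1 library left out, the lowest without cKO 2. The difference of *Krt18* ran from 1.90 to 3.17 with 1 library left out and was 2.19 with *Ddx3y* as a covariate, and 9 of the 10 genes stayed higher in cKO libraries under every alternative in which they passed. *Spint1*, *Cdh1* and *Cldn4* could be fitted only without a filter.

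The labels do not say that a replicate number marks a shared animal, and correlations over genes of the deviations of libraries 1, 2 and 3 from their groups were 0.03, -0.17 and 0.21. With the replicate number as a block, 0 genes had an adjusted p under 0.05 in limma (lowest 0.18), with 1465 in place of 1521 at an unadjusted p under 0.05. FPKM hides read depth, so the counting error of values under 1 FPKM is not known.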
